A study of Mus musculus with 3 samples.

Results

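The genes described here are 51 genes of the myogenic programme, in which regions recovered by *PAM* (PAM-1 in the labels) ChIRP-seq from mouse activated satellite cells (ASCs) were looked up. They fall into 21 regulators (transcription factors, their inhibitors and Notch pathway genes), 8 surface and signalling genes and 22 structural genes of the muscle fibre. A region was assigned to a gene when it overlapped the gene's span in GENCODE M1, an annotation of mm9, by at least 1 bp. Of 2457 deposited regions, 26 were in member genes, 24 of 2112 in the odd pool and 2 of 345 in the even pool. ChIRP-seq hybridizes biotinylated antisense probes to an RNA in crosslinked chromatin and sequences the DNA that is pulled down with it. The probes against *PAM* were split into an odd and an even pool and hybridized separately to lysate of ASCs, which were sorted from hindlimb muscle of Tg:Pax7-nGFP mice, cultured with FGF-Basic and crosslinked with glutaraldehyde. Both pools shared this strain, culture and crosslinking and differ in the labels only by the probes, the age of the mice and the culture time are not given in the labels, and the nGFP transgene reports Pax7. The lysate was divided into aliquots before the probes were added, and the sources do not name separate cultures or animals for the pools, so a region found in both is not taken as found in independent samples of cells. With 1 library per pool there is no replicate error, and no test was made. An input library was also made and was not analysed here. The deposited lists hold positions and a score per region and no expression values or read counts, so the identity of the cells could not be checked against marker genes and the depth is unknown.

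Growth and repair of skeletal muscle draw on satellite cells, whose maintenance depends on Pax7. The basic helix-loop-helix factors Myf5 and Myod1 commit their progeny to the muscle lineage, whereas Myog and the Mef2 factors drive the exit from the cell cycle and the expression of contractile proteins. Notch signalling, through the receptors Notch1, Notch2 and Notch3 and effectors such as Hes1, Hey1 and Heyl, holds satellite cells in the undifferentiated state, and the Id proteins block the basic helix-loop-helix factors. The contractile apparatus is built from myosin heavy and light chains, the troponins, titin (Ttn) and nebulin (Neb), and new fibres begin with embryonic isoforms such as Myh3 and Myl4.

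The probes are shown first, since they define the 2 pools. They are 20 nt each and were designed by the authors against *PAM* (Gm12603, chromosome 4 from 88696212 to 88730518, plus strand). Their match to this locus was not checked, and they were taken as odd or even by their numbers.
PAM #1: gccagaaagaatggatgact
PAM #2: gcattttcagtgggatcaca
PAM #3: acctgccatctgctatcaaa
PAM #4: tcttcacaaaccctcatgat
PAM #5: acaagtacttcagctccatg
PAM #6: gttctgatatgtaagctcct
No region in a member gene held a whole probe sequence. The longest exact match between an odd probe and an odd region in a member gene, on either strand, was 10 nt, in exon 23 of Myh3, and the median over these 24 regions was 7.5 nt. Over all 2112 odd regions the median was 7 nt and the longest match 13 nt. The even regions in Mef2c and Tnnc1 had longest matches of 7 to 8 nt with an even probe, against a median of 7 nt over all 345 even regions.

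The following sequences are those of the odd-pool regions on coding sequence with the highest score among the regulators (Myog), the surface and signalling genes (Cav1) and the structural genes (Myh3), of the region in Tnnc1, the only member with regions of both pools, and of the region in Mylpf that surrounds the shortest exon, which was added after the values were seen. All are read 5′ to 3′ from mm9 on the plus strand, which is the strand of each gene. Capitals mark coding exon and lower case marks intron, and the sequence of Cav1 stops where the coding sequence ends.
Myog exon 1, chr1:136186668-136186921: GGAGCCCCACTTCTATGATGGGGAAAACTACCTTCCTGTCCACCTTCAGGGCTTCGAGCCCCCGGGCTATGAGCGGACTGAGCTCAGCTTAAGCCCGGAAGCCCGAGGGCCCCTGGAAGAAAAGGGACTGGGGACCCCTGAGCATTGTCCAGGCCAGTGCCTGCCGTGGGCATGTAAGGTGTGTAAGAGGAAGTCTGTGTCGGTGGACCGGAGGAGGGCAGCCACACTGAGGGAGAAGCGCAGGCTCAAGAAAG
Cav1 exon 3, chr6:17289260-17289451: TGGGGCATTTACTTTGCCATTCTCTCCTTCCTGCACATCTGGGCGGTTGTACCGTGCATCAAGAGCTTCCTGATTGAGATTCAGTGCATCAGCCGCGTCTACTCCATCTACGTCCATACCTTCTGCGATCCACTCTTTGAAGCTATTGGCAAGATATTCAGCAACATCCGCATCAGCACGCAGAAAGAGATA
Myh3 exon 34, chr11:66912696-66912949: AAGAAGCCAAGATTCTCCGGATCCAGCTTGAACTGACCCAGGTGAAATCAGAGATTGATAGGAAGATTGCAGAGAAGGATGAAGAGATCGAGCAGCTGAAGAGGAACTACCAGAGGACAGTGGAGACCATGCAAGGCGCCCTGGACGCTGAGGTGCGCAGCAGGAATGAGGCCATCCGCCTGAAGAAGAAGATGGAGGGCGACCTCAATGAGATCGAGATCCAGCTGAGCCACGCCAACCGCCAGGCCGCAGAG
Tnnc1 exon 3, chr14:32023196-32023449: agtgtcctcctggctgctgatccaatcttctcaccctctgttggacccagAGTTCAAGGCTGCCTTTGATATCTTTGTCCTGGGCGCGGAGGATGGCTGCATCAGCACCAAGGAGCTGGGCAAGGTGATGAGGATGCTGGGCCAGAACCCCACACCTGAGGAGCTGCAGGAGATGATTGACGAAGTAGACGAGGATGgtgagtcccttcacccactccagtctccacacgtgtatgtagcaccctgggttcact
Mylpf exon 2, chr7:134356297-134356550: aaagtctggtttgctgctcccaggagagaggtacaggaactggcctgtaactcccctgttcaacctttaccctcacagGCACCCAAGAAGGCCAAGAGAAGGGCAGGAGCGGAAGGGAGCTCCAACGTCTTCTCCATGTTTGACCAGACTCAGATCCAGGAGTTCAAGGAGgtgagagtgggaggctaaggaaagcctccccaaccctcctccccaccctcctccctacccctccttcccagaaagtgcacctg
The regions of Myog and Myh3 lay wholly within coding exon. That of Tnnc1 held 147 coding bases with 50 intron bases before and 57 after them, and that of Mylpf held 93 coding bases between 78 and 83 intron bases. In both, the intron ended with the bases ag before the exon and began with gt after it, as introns do.

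In the odd pool, 13 of the 51 members had at least 1 region, which is 25.5% (95% Wilson interval from 15.5% to 38.9%), against 6.46% of all 22367 protein-coding genes. By group, these were 3 of the 21 regulators (14.3%, interval from 4.98% to 34.6%), 4 of the 8 surface and signalling genes (50.0%, from 21.5% to 78.5%) and 6 of the 22 structural genes (27.3%, from 13.2% to 48.2%). The intervals of the 3 groups overlapped each other, and that of the regulators held the value of all protein-coding genes. The intervals treat genes as independent and cover counting error only. In the even pool, 2 of the 51 members had a region (3.92%, from 1.08% to 13.2%), against 0.997% of protein-coding genes. These were Mef2c and Tnnc1, and both had the lowest score of the list. Regions of both pools were found in 1 member, Tnnc1 (1.96%, from 0.347% to 10.3%), against 0.697% of protein-coding genes. The lower bound of the even interval, 1.08%, is close to the background of 0.997%.

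**Figure D1:**
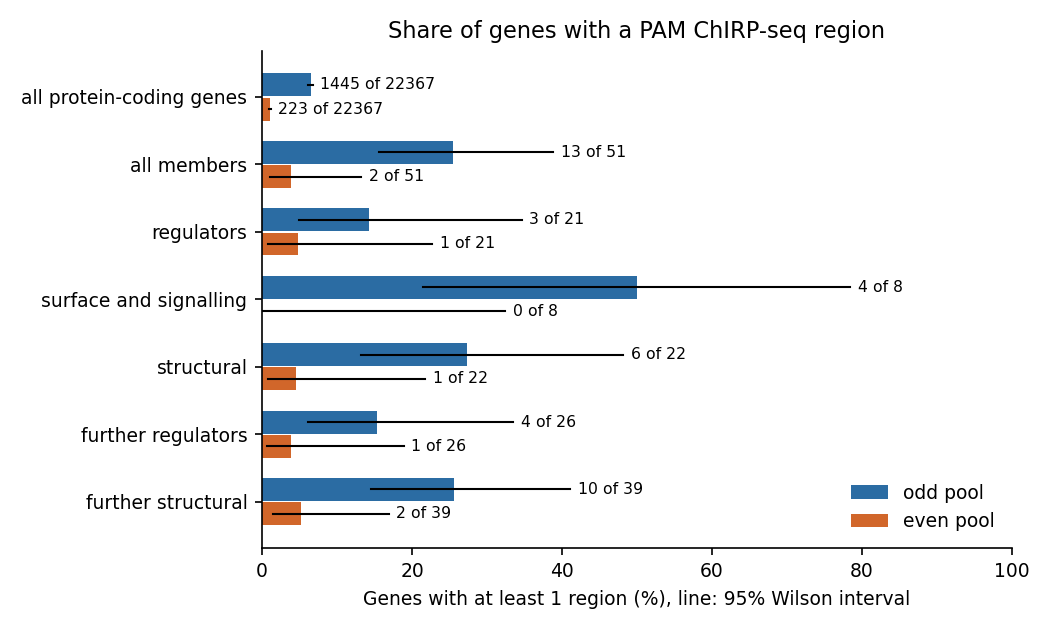
Share of genes with at least 1 region, for all protein-coding genes, the members, their 3 groups and 2 further lists of muscle genes. Bars give the percentage in the odd (blue) and even (orange) pool, black lines the 95% Wilson interval, and the text the counts. The odd bar of all members reaches 25.5% and that of all protein-coding genes 6.46%.

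Transcript length is given beside these shares, and its part in them was not tested. The median of the longest spliced length was 3863 nt over the members and 2442 nt over all protein-coding genes. Among genes of at least 3863 nt, 4 of 26 members had an odd region (15.4%, Wilson interval from 6.15% to 33.5%). The share of the 5631 protein-coding genes of this length, 8.93%, lies within that interval. Members with an odd region had the lower median, 2746 nt, against 4755 nt for the 38 members without one. The lengths overlapped, with 8044 nt in Notch3, which had odd regions, and 700 nt in Tnnc2, which had none. Over protein-coding genes with an odd region, the median was 3110 nt. The longest members had no region in either pool. They were Ttn, the elastic ruler of the sarcomere (106824 nt), Neb, which sets the length of thin filaments (22489 nt), Ryr1, the calcium release channel (15362 nt), and Dmd, the membrane anchor lost in muscular dystrophy, whose span of 2257 kb was the widest.

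Among the myogenic factors, only Myog had regions, both in the odd pool. Myog, the factor of terminal differentiation, lies on chromosome 1 from 136186581 to 136189124 and is 2.54 kb long. One region was in the coding sequence of exon 1 of 3, with a midpoint 214 bp from the gene start and a score of 8. The other was in the 3′ UTR in exon 3, from 136188553 to 136188806, and scored 14. This was the highest score of any region in a member gene, and 203 of the 2112 odd regions (9.61%) had a score of 14 or more. The even pool had no region within 3031 kb of Myog.

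Pax7, Pax3, Myf5, Myod1 and Myf6 had 0 regions in either pool. The odd region nearest to Pax7 was 446 kb away, that nearest to Myod1 442 kb and that nearest to Myf5 4442 kb. The median of this distance was 230 kb over the 38 members without an odd region and 351 kb over such protein-coding genes. An even region lay 69.1 kb from Myod1. Pax7, whose product marks the satellite cell, shares chromosome 4 with *PAM* and lies 50.6 Mb from it. The other members on this chromosome are Id3, Heyl and the syndecan gene Sdc3, between 34.2 and 47.0 Mb from *PAM*. These 4 members on chromosome 4 had 0 regions. Over all protein-coding genes 6.76% had a region of either pool, and 0 of 4 cannot be told apart from that share. The 14 members with a region of either pool were spread over 10 of the 15 chromosomes that hold a member.

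Of the cofactors and inhibitors, only Mef2c had a region, and only in the even pool. Mef2c, a MADS-box partner of the myogenic factors, held this region in the 5′ UTR in exon 1 of 12, on chromosome 13 from 83643137 to 83643384, with a midpoint 228 bp from the gene start. Its score of 4 is the lowest in the list. The nearest odd region was 166 kb away. Its relatives Mef2a and Mef2d, the homeobox factor Six4 with its coactivator Eya1, the repressor Msc, and Id1, Id2 and Id3 had none in either pool.

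In the Notch pathway, the receptor gene Notch3 and the effector gene Hes1 had odd regions. Hes1, a transcriptional repressor induced by Notch, had 1 region at the end of its last exon, on chromosome 16 (30067637 to 30067890), which scored 4. It had the lowest GC content of the odd regions in members, 28.7%. Notch3, on the minus strand of chromosome 17, had a region in the 3′ UTR in exon 33 of 33, from 32258261 to 32258514, which scored 8. A second region, from 32296232 to 32296485, scored 6 and was in an intron. It had the highest GC content, 64.2%, and its median 31-mer occurred 7 times in mm9, with 146 of its 224 31-mers found more than once. With the shorter record of Tnnc1, this was the only one of the 24 odd regions in members that was off exons and the only one whose median 31-mer was repeated. Notch1, Notch2, Hey1 and Heyl had 0 regions, and the nearest odd regions to Notch1 and Heyl were 61.1 and 71.2 kb away.

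The surface and signalling genes had 6 odd regions in 4 genes and none in the even pool. Chrna1 encodes the α subunit of the muscle acetylcholine receptor, and it held 1 region with a score of 11, in the 3′ UTR in exon 9 of 9, on chromosome 2 from 73403952 to 73404205. Cav1, the caveolin of membrane invaginations, had a region in exon 3 of 4, scoring 7, and another in the 3′ UTR in exon 4, scoring 9. They start at 17289260 and 17290154 on chromosome 6, and their midpoints were at 94.1% and 96.7% of the gene's span. Vcam1, an adhesion molecule by which satellite cells are sorted, had a region in exon 8 of 9 and another in the 3′ UTR in exon 9, both with a score of 4, which start at 115817292 and 115813257 on chromosome 3. Igfbp5 encodes a binding protein of insulin-like growth factors and held 1 region with a score of 5, in the first exon, on chromosome 1 from 72920541 to 72920794. This exon is coding in the transcript with the longest spliced length and noncoding in the transcript with the most exons. Met, the receptor of hepatocyte growth factor, the adhesion molecule Ncam1, Sdc3, and Mstn, which restrains muscle growth, had 0 regions, and an odd region lay 12.3 kb from Sdc3.

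**Figure D2:**
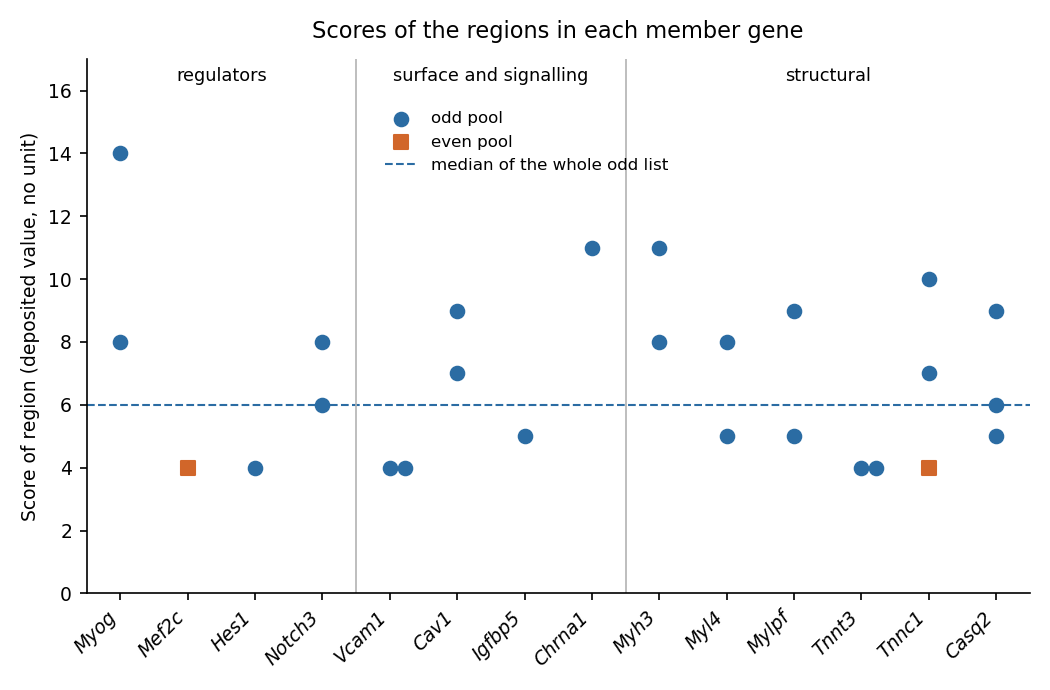
Score of each region in the 14 member genes that had one. The vertical axis is the deposited score, which has no stated unit, circles are odd-pool and squares even-pool regions, points with equal scores are set side by side, and the dashed line is the median of the whole odd list, 6. Scores run from 4 to 14 in the odd pool, with Myog at the top, and both even regions are at 4.

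The structural genes had 13 odd regions in 6 genes. Myh3, the embryonic myosin heavy chain, had 2 regions, in exon 23 of 41 where the score was 8, and in exon 34, where it was 11. They start at 66905847 and 66912696 on chromosome 11. In the first, 77 of 224 31-mers were found more than once in mm9, while in the second every 31-mer occurred once. The adult and perinatal myosin genes that adjoin Myh3 on chromosome 11, Myh1, Myh2, Myh4 and Myh8, had 0 regions, as had the slow myosin gene Myh7 on chromosome 14. Myl4, the embryonic and atrial light chain, had regions in exon 3 of 9, scoring 8, and in exon 6, scoring 5, which start at 104438659 and 104445714 on chromosome 11. Mylpf, the regulatory light chain of fast fibres, had regions in exon 2 of 7, scoring 5, and in exon 7, scoring 9, which start at 134356297 and 134357570 on chromosome 7. Myl1 had none.

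Troponin, the calcium switch of the thin filament, had regions in 2 of its 7 member genes. Tnnc1, the calcium-binding subunit of slow and cardiac fibres, had odd regions in exon 3 of 6, scoring 10, and in exon 6, scoring 7, and an even region in exon 3, scoring 4. The odd and even regions of exon 3 overlapped by 233 bp, from 32023217 to 32023449 on chromosome 14. The odd region of exon 6 starts at 32024666. All 3 regions also lie within an intron of Nisch, which runs on the opposite strand, and the lists carry no strand. Tnnt3, the tropomyosin-binding subunit of fast fibres, had regions in exons 12 and 14 of 18, both with a score of 4, which start at 149697090 and 149697868 on chromosome 7. Tnnt1, Tnnt2, Tnni1, Tnni2 and Tnnc2 had 0 regions in either pool. Tnnc2 was the member closest to an odd region without holding one, at 4.43 kb, and no further member was reached when spans were extended by 2000 bp. Casq2 encodes a calcium store of the sarcoplasmic reticulum and held 3 odd regions, the most of any member when the shorter of 2 annotated records of Tnnc1 is used. The longer record would give Tnnc1 4. One was in exon 1 of 12, with a midpoint 267 bp from the gene start and a score of 5, and the other two were in exon 12 with scores of 6 and 9. They start at 101890478, 101949091 and 101949620 on chromosome 3. Ckm, the muscle creatine kinase gene, had none.

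**Figure D3:**
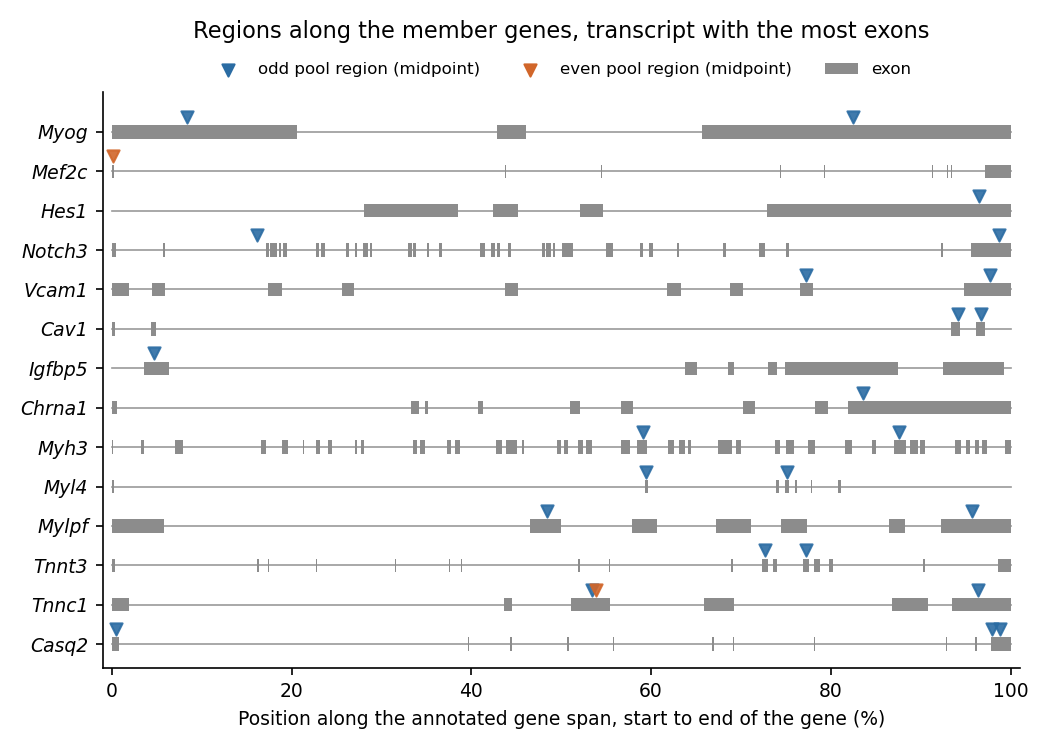
Regions along the 14 member genes with a region. Each gene runs from its start at 0% to its end at 100% of the annotated span, grey boxes are exons of the transcript with the most exons, and triangles are midpoints of odd (blue) and even (orange) regions. All midpoints but the first of Notch3 lie over an exon box, in Myog and Casq2 over the first and the last one, and in Tnnc1 both pools meet over exon 3.

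The members with odd regions mostly had several. Of the 13 genes, 9 had 2 regions, Casq2 had 3, and Hes1, Igfbp5 and Chrna1 had 1. Thus 76.9% had 2 or more, against 19.6% of the 1445 protein-coding genes with an odd region. The 2 or 3 regions of a gene share that gene and are not replicates. The median score of the 24 regions was 7, with a range from 4 to 14, against 6 over the whole odd list, whose scores run from 4 to 81. A score of at least 10 was found in 4 of the 24, against 19.5% of the list. The medians of the groups were 8 for the 5 regions in regulators, 6 for the 6 regions in surface and signalling genes and 7 for the 13 in structural genes, all within the range of the single regions of each group.

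Most odd regions in members lay on exons, and in the structural genes mainly on coding sequence. Over all members, 23 of 24 regions had their midpoint on an exon (95.8%, 95% Wilson interval from 79.8% to 99.3%), against 79.7% of the 1875 pairs of a protein-coding gene and an odd region. The lower bound is close to the share of all pairs. Only the shorter record of Tnnc1 was used for the members, whereas all pairs include both records. With both, the share on exons in members was 88.5% of 26 regions. Coding sequence held 14 of the 24 (58.3%, from 38.8% to 75.5%), against 30.99% of all pairs, and the 3′ UTR held 8 (33.3%, from 17.97% to 53.3%), against 45.9%. Internal exons held 10 of the 24 (41.7%, from 24.5% to 61.2%), against 21.4%. These classes depend on the transcript. On the one with the longest spliced length, the Cav1 region of exon 3 lies in the last exon, 2 of 2. Of the Myl4 regions, that of exon 3 lies outside that transcript and that of exon 6 in its exon 1 of 3. The last exon held another 10 (41.7%), against 53.3% of all pairs. Its share of the exon length was 32.4% over the 13 members with an odd region and 43.5% over protein-coding genes with one. Structural genes had 11 of 13 regions on coding sequence and 8 of 13 on internal exons. Among the regulators 1 of 5 was on coding sequence and 3 of 5 were in a 3′ UTR, and among the surface and signalling genes 2 of 6 and 3 of 6. With 5 and 6 regions in these groups and several regions per gene, the difference was not tested. Exon 1 held 3 of the 24 (12.5%, lower Wilson bound 4.34%), in Myog, Igfbp5 and Casq2, against 3.41% of all pairs. Of the 24 midpoints, 2 were within 500 bp of the gene start, in Myog and Casq2, and no such share is given for all pairs.

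**Figure D4:**
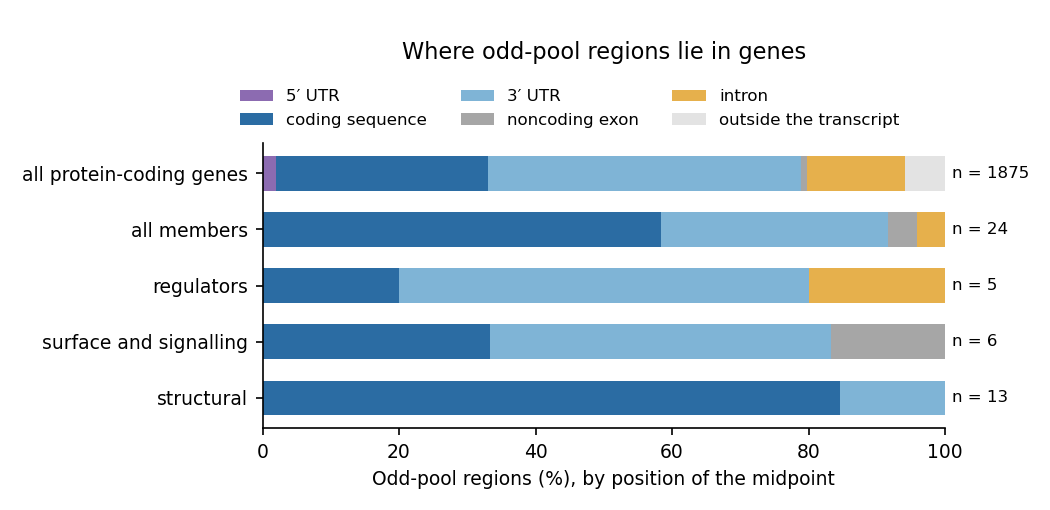
Position of odd-pool regions in all protein-coding genes, in the members and in their 3 groups. Each bar adds up to 100% of the regions and colours give the part of the transcript at the midpoint. Coding sequence takes 58.3% of the member regions and 30.99% of those in all protein-coding genes, and the structural genes have neither introns nor 5′ UTRs in their bar.

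Short exons were mostly held whole by a region, in members as over all protein-coding genes. Odd regions are 254 bp wide, and 9 of those in members were on an exon no longer than that, all in structural genes. Of these, 8 (88.9%) held the whole exon, in Myl4, Mylpf, Tnnt3 and Tnnc1, on exons from 93 to 224 bp. In Myl4 this depends on the transcript. The exons are 154 and 174 bp long on the transcript with the most exons. Over all its transcripts, 230 and 213 bp of the regions were exonic. The centres of these 8 regions were from 1 to 26 bp from the centre of their exon. Holding the whole exon itself limits this distance, the more so the longer the exon, so the offsets are a description. In Tnnt3 the exons of 117 and 114 bp were flanked within the region by 72 and 65 bp and by 73 and 67 bp of intron. The even region at exon 3 of Tnnc1 also held the whole exon, with an offset of 21.5 bp. Over all protein-coding genes, 225 of 278 odd regions on such exons held the whole exon (80.9%) and the median offset over the 278 was 9.5 bp, against 3.5 bp over the 9 in members. The largest offset was 94 bp and the 90th percentile 30 bp over the 278, against 26 and 20.8 bp over the 9. Of the 24 odd regions in members, 11 lay wholly on annotated exons and 12 partly.

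**Figure D5:**
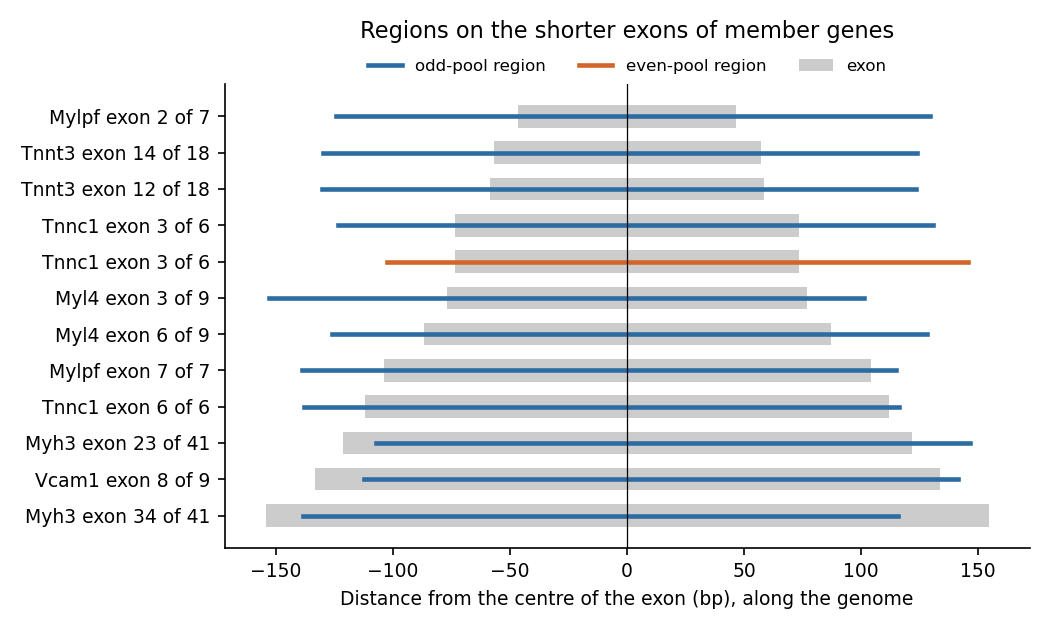
Regions on the shorter exons of members. The horizontal axis is the distance in bp from the centre of the exon, grey boxes are exons, and blue and orange lines are odd and even regions at their true width. Exons of up to 309 bp are shown. The 8 uppermost blue lines extend beyond their exon on both sides, from Mylpf exon 2 with 93 bp to Tnnc1 exon 6 with 224 bp.

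The 24 odd regions were mostly unique in the genome. In 22 of them every 31-mer occurred once in mm9, the exceptions being the intron region of Notch3 and exon 23 of Myh3. The median 31-mer occurred once in 95.8%, against 89.4% of all pairs of a protein-coding gene and an odd region. Their median GC content was 52.6%, against 49.6%. The median was 55.5% for the structural genes, 50.4% for the regulators and 45.1% for the surface and signalling genes. Annotated genes other than the member were overlapped by 5 of the 24, at Notch3, Cav1 and Tnnc1, in each case in an intron of a gene on the opposite strand.

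Further genes of the same pathways were looked up as 2 lists that hold no member. These lists were chosen with earlier results of these data known, so their shares are a description and no independent check. Of 26 further regulators, 4 had an odd region (15.4%, 95% Wilson interval from 6.15% to 33.5%) and 1 an even region (3.85%, from 0.682% to 18.9%). Over all protein-coding genes the shares were 6.46% and 0.997%, and both lie within these intervals. All 4 odd regions were in the 3′ UTR in the last exon, in Sdc4, a syndecan of satellite cells, with a score of 11, Tcf12, an E-protein partner of the myogenic factors, with a score of 5, and Eya4 and Cd34, each with a score of 4. The even region was in Tcf4, another E-protein gene, with a score of 4. Of 39 further structural genes, 10 had an odd region (25.6%, from 14.6% to 41.1%), against the same 6.46%. Of these, 2 also had an even one (5.13%, from 1.42% to 16.9%), against 0.697% of protein-coding genes. The 2 with regions of both pools were the tropomyosin genes Tpm1 and Tpm2, whose products carry troponin on the thin filament. Tpm1 had 4 odd regions with scores from 6 to 16 and an even region with a score of 6, and Tpm2 had 4 odd regions with scores from 10 to 13 and an even region with a score of 6. The odd and even regions overlapped in both genes, at the last exon of Tpm1 and the first of Tpm2. Tpm2 lies on chromosome 4. The highest score was 10 in Mybph, a myosin-binding protein, and in the calcium pump gene Atp2a2, 9 in the dystroglycan gene Dag1, 8 in the small heat shock protein gene Cryab, and 6 in the tropomyosin gene Tpm3 and the light chain gene Myl2. It was 5 in Myom2, a protein of the M-band, and 4 in Smyd1, a muscle methyltransferase. The region of Dag1 that scored 9 had its midpoint just past the end of the gene, with 105 of its 254 bp on exons. The other region of Dag1 scored 4. In the region of Tpm3, 174 of 224 31-mers were repeated in mm9. The region of Myl2 was in an intron, with 96 of 224 31-mers repeated. The region assigned to Smyd1 held 0 bp of its exons and overlapped an exon of Krcc1, so that the 10 genes include 1 whose region lies on an exon of a neighbour alone. In the odd pool, the share of the further structural genes was near the 27.3% of the structural members, with overlapping intervals. That of the further regulators was near the 14.3% of the member regulators, also with overlapping intervals, but these 2 lists are not divided alike. The syndecan gene Sdc4 is counted among the further regulators, whereas Sdc3 is a surface and signalling member, a group with a share of 50.0%.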

How the data were processed

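ASCs were assayed by *PAM* ChIRP-seq using 2 probe pools, each with 1 library. The authors mapped unique reads to mm9 using Bowtie2, called peaks by MACS2 (versions not given in the sources used here) and deposited a list of regions with a score per region. The kind of score is not stated, so scores were compared only within a list. The first coordinate was taken as 0-based, and positions are printed 1-based. Depth is unknown, and deeper libraries can yield more regions.

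Genes, exons and coding sequence came from GENCODE M1 (NCBIM37, the assembly of mm9). Of 2 annotated records of Tnnc1, the shorter was used. Positions refer to region midpoints on the transcript with the most exons. The number of times each 31-mer of a region occurs in mm9 was counted. Probe sequences came from the study's oligonucleotide list. Genes named were all members, and all genes of both further lists with a region. Members, lists and alternatives were chosen with earlier results of these data known. The overlap step was tested on simulated data. Intervals are 95% Wilson intervals. Alternatives were exon or midpoint overlap, spans extended by 2000 bp and a score of at least 5. Others were regions whose median 31-mer occurs once, other backgrounds and another transcript. Python 3.11.15, NumPy 2.4.6, pandas 2.3.3, SciPy 1.17.1, numba 0.67.0 and matplotlib 3.10.9 were used.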

Additional observations from a re-analysis of the deposited data

How the results depend on the processing

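No paired analysis was possible because the labels give each pool a single library, and for the same reason no replicate could be left out. On recomputation, 31 values stayed within 1.5 times the reported count or within the interval of the reported share or median, and 13 did not. With a score of at least 5, the members with a region fell from 13 to 10 in the odd pool, to 0 in the even pool and to 0 in both pools, since both even regions have a score of 4. The share of protein-coding genes with an odd region, 6.46%, became 5.48% with exon overlap and 7.51% with extended spans. It became 4.65% with a score of at least 5 and 5.76% with regions whose median 31-mer occurred once. Among genes at least as long as the members' median, it was 8.93%. The even share, 0.997%, became 0.693%, 1.15%, 0.5499%, 0.854% and 1.39% under the same settings. The median score of odd regions in members, 7, became 9 when each gene counted once by its highest score. Using both records of Tnnc1, an alternative chosen after seeing the data, added 2 odd regions, both off the exons of Tnnc1, which made its count 4 and the share on exons 88.5% of 26 regions, and changed no count of members. The depth of the libraries is unknown and was not tested.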
